A study of Mus musculus with 10 samples.

Results

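The 129 rows described here are the tRNA features of glycine (Gly), glutamate (Glu), aspartate (Asp), valine (Val), lysine (Lys) and histidine (His) in a small RNA count table of mouse splenic B-cells. They were taken by name alone, as the rows of the tRNA class whose name ends in 1 of these 6 amino acids and an anticodon. The rule uses no count, but these 6 amino acids were picked out with earlier results of the same data known. The table held 6968 features, of which 431 were tRNA rows. The 10 libraries came from CD43- splenic B-cells, a fraction depleted of CD43-bearing cells, and each library pooled the cells of 2 mice.

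There were 3 genotypes in 2 conditions. The wt mice were the unmodified controls. The 3'RR-deficient mice lacked the 3' regulatory region, a group of enhancers at the end of the immunoglobulin heavy chain locus. The Eµ-deficient mice lacked the intronic enhancer of that locus with its flanking matrix attachment regions. All were on a 129 background, and the study used adult mice of both sexes. These are germline deletions, so every cell of the mouse carried them, including cells left in the fraction that were not B-cells. Cells of each genotype were non-stimulated (NS) or stimulated with lipopolysaccharide (LPS), a bacterial product that makes B-cells divide and differentiate. The labels describe a culture of 2 days for both conditions, with 5 µg per ml of LPS in the stimulated ones, whereas the methods of the study have the NS cells taken before culture. The wt and 3'RR-deficient groups had 2 libraries per condition and the Eµ-deficient mice had 1, so no value of the Eµ-deficient mice within a single condition has a replicate.

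A tRNA carries an amino acid to the ribosome and reads a codon through its anticodon. Several tRNAs may carry the same amino acid with different anticodons (isoacceptors), and several gene copies may share an anticodon. Cleavage of mature tRNAs, often in or near the anticodon loop, gives fragments short enough to be caught in small RNA libraries. Fragments from the 5' end of Gly, Glu, Val, Lys, Asp and His tRNAs are known as abundant members of this class in blood, lymphoid tissue and many cell types. The counts below are of reads assigned to a tRNA row. The table does not say which part of the tRNA they came from.

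Sequence could be read for 5 member rows, none of them Glu or Lys. They are shown because they could be read, and run from a Val row that was high in the Eµ-deficient libraries to an Asp and a His row that did not pass the test in any comparison. The first pair is printed with the anticodon in capitals. The Val row lies at chr13:23446142-23446214 on the minus strand and is whole. For the His row, chr3:96452495-96452556 on the plus strand, the first 62 of 72 bases could be read. Both were taken from RefSeq sequence windows (GRCm38.p6).
chr13.tRNA966-ValCAC: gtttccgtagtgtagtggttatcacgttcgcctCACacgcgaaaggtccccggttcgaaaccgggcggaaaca
chr3.tRNA295-HisGTG: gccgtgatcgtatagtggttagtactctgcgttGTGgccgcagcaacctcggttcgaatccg
For 3 other rows the 5' start was read from GENCODE M21 transcripts that overlap them (GRCm38). Here the capitals mark the 8 of the first 17 positions at which these 3 rows and the Val and His rows all carried the same base. The GlyCCC start is chr17:25875088-25875117 on the plus strand and the GlyTCC start chr1:171064754-171064770 on the minus strand, both inside an annotated UTR exon of an overlapping transcript. The AspGTC start is chr13:21940374-21940390 on the minus strand.
chr17.tRNA112-GlyCCC: gcgccgcTgGTgTAGTGgtatcatgcaaga
chr1.tRNA1009-GlyTCC: gcgttggTgGTaTAGTG
chr13.tRNA991-AspGTC: tcctcgtTaGTaTAGTG
Over these 17 bases the pairs were identical at 9 positions (ValCAC with HisGTG) to 13 positions (GlyTCC with GlyCCC and with HisGTG).

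Lys had 30 rows, Gly 29, Val 22, Glu 21, Asp 16 and His 11. They fell into 14 anticodons. Gly was read by 4 (GCC with 14 rows, CCC and TCC with 7 each, ACC with 1), Val by 3 (CAC 11, AAC 8, TAC 3), Glu by 2 (CTC 13, TTC 8), Lys by 2 (CTT 19, TTT 11), His by 2 (GTG 10, ATG 1) and Asp by GTC alone. The rows were 71 to 74 bases long, and 123 of 129 had a RefSeq tRNA gene of the same start, end and amino acid. Many lay together: 19 rows lay within chr1:171037029-171111515, 17 within chr3:96311254-96501518 and 21 within chr13:21160785-23517273. Of the 129 rows, 99 had a mean of at least 100 CPM (counts scaled to a library of fixed size). The row chr4.tRNA1177-ValAAC, with a single count in 1 library, was the only member with 10 counts or fewer in every library.

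Copies of the same tRNA had almost the same count. In wt NS replicate 1, the rows chr1.tRNA1013-AspGTC, chr5.tRNA1317-AspGTC and chr5.tRNA1315-AspGTC had 12066, 12063 and 12062 counts, and in the Eµ-deficient LPS library 20879, 20890.0 and 20881 counts. Copies were compared among the rows whose mean count lay within 5% of the anticodon's median row, a choice that by itself lowers the spread between them. Over the 13 such AspGTC rows the variance of the counts divided by their mean had a median of 0.0126 over libraries and was below 1 in 10 of 10 libraries. Reads placed at random on 1 copy each would give a ratio near 1. The same ratio had a median of 0.011 for 8 HisGTG rows, 0.104 for 9 GluCTC rows, 0.0787 for 7 GlyTCC rows and 0.328 for 6 LysTTT rows. It was above 1 for 8 GlyGCC rows (5.19) and 5 ValCAC rows (8.61). Counts of like copies are therefore not treated as separate measurements, and a sum over an anticodon may hold the same read several times. For this reason the anticodon sum is the main level here, row counts are given beside it, and a sum is not a number of molecules. Reads that fit rows of different anticodons may still be in more than 1 sum.

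Depth ranged from 3482540.0 to 18144016 counts per library, and the second NS libraries of wt and 3'RR-deficient mice were the 2 shallowest. These second NS libraries stood apart from the first: the deviation of replicate 2 from replicate 1 was correlated between wt NS and 3'RR-deficient NS (r = 0.918 over 123 member rows and 0.83 over 1503 features, a description with no test), and less so between the LPS groups (0.496 and 0.512). Features of the rRNA class took 0.347% (wt) and 0.266% (3'RR-deficient) of the counts in the second NS libraries, against 0.0074% to 0.0423% in all others. Intervals on shares are Wilson 95% intervals and cover counting error only. MicroRNA features took 63.9% to 82.1% of the counts in the 8 wt and 3'RR-deficient libraries and 60.2% and 51.4% in the Eµ-deficient ones. The lymphocyte microRNA list (5 of 5 detected) had a summed level of 100301 to 184000 CPM in the 8 libraries and of 106546 and 189119 CPM in the Eµ-deficient NS and LPS libraries. For this and all later microRNA lists, CPM is scaled to the microRNA counts of a library, not to all its counts, and without TMM.

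The 6 amino acids took 3.57% and 5.91% of all counts in the wt NS libraries, and 7.16% and 5.29% in the wt LPS libraries. In 3'RR-deficient cells the shares were 4.03% and 6.79% without LPS and 5.07% and 5.72% with LPS. The Eµ-deficient libraries held 7.94% (interval 7.92 to 7.95) without LPS and 15.1% with LPS, the 2 highest shares of the 10. Within the tRNA class these amino acids made up 47.9% to 59.9% of the counts in the other 8 libraries and 72.7% and 73.9% in the Eµ-deficient NS and LPS libraries.

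**Figure D1:**
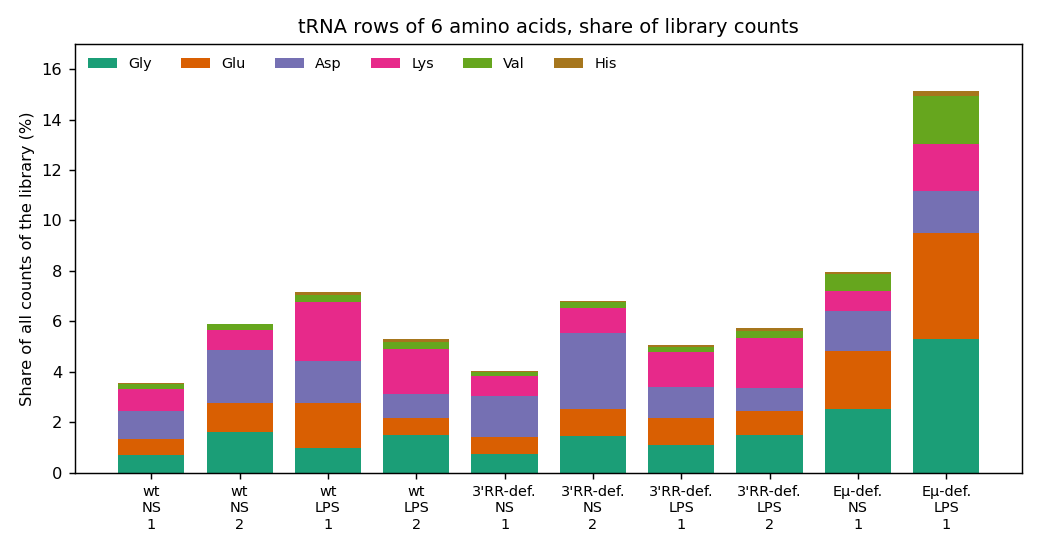
Share of all counts of a library (%, y axis) taken by the tRNA rows of Gly, Glu, Asp, Lys, Val and His (stacked bars), for each of the 10 libraries (x axis: genotype, condition and replicate). The Eµ-deficient LPS library reaches 15.1%, against at most 7.94% in the other 9.

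LPS and genotype were first compared on this share. Between LPS and NS the mean log2 difference of the share was 0.47, which the exact permutation test did not separate from the spread between libraries (two-sided, labels exchanged within genotype, 72 arrangements, p = 0.222). The 3'RR-deficient and wt shares differed by -0.0018 on the log2 scale (exact permutation test within condition, 36 arrangements, p = 1, with a smallest possible p of 0.0556). These and all later p-values measure the spread between libraries, each a pool of 2 mice. In the Eµ-deficient comparison that spread comes mainly from the wt and 3'RR-deficient libraries. With 1 library per condition, no spread between Eµ-deficient pools of the same condition enters. In such bulk samples, fewer cells of a type and less RNA per cell cannot be told apart.

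The amino acids were ordered by their sums, which add every copy and so also depend on the number of copies that share reads. On sums scaled to the length of the rows (CPM per kilobase), Gly had a mean of 241614 ± 184140 (SD, n = 10), Asp 226992 ± 101480, Glu 207211 ± 159055, Lys 181828 ± 58139, Val 60745 ± 65106 and His 11022.5 ± 6032. The first 4 could not be ordered: neighbours differed by -0.04 (Gly to Asp), 0.30 (Asp to Glu) and -0.02 (Glu to Lys) on the log2 scale, with adjusted p of 0.93, 0.498 and 0.93 in the exact sign-flip permutation test over libraries. Lys was above Val in 9 of 10 libraries (log2 ratio 2.00, SE 0.35, exact adjusted p = 0.00977) and Val above His in 10 of 10 (log2 ratio 2.27, SE 0.36, exact adjusted p = 0.00977). The highest sum was Asp in all 4 NS libraries of wt and 3'RR-deficient mice, Lys in all 4 of their LPS libraries and Gly in both Eµ-deficient libraries, while His was lowest in all 10. With only the highest row of each anticodon in the sum, so that copies are not added, the order of means was Gly, Glu, Lys, Asp, Val, His and the Val to His step alone passed the test. Asp then led only in both 3'RR-deficient NS libraries, with Lys first in wt NS replicate 1 and Gly in wt NS replicate 2, while Lys still led in the 4 LPS libraries of wt and 3'RR-deficient mice and Gly in both Eµ-deficient ones.

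Eµ-deficient cells were compared with wt cells across both conditions, to ask how the fragment pool differed in mice lacking the enhancer. GlyACC, GlyCCC, GlyGCC, GluCTC, ValAAC and ValCAC were higher in the Eµ-deficient libraries, whereas GlyTCC, GluTTC, ValTAC and the Lys, His and Asp anticodons did not pass the test. Of 14 anticodons, 6 rose and 0 fell (edgeR's quasi-likelihood test, adjusted p under 0.05, on an additive fit of all 10 libraries), against 2.51% of all 4179 features called in the same fit, 2.44% higher and 0.0718% lower. The median difference was 1.57 on the log2 scale over the 14 anticodons and -0.10 over all features. Of the 37 anticodons of the other amino acids, 0 passed in this fit. Some rows of different anticodons also held like counts. In the Eµ-deficient NS and LPS libraries chr3.tRNA282-GlyCCC had 13694 and 44137 counts and chr4.tRNA1308-GlyGCC 13468 and 42404, a pair picked after its values were seen. The 6 calls may therefore be fewer than 6 separate measurements.

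GlyACC, a rare glycine anticodon with 1 row, moved most. Its level was 86 and 50.4 CPM in wt NS, 58 and 54.5 CPM in wt LPS, 90.6 and 51.3 CPM in 3'RR-deficient NS, 77.7 and 52.6 CPM in 3'RR-deficient LPS, and 717 CPM without and 992.8 CPM with LPS in Eµ-deficient cells. Both Eµ-deficient libraries lay far above the other 8, which overlapped among themselves. The difference was 3.82 on the log2 scale (SE 0.47, adjusted p = 0.00187). Its counts in the Eµ-deficient NS and LPS libraries, 5931 and 22282, were near those of chr17.tRNA391-ValCAC, 6031 and 22596. That row was picked after its values were seen, and in wt NS replicate 1 the counts were 846 and 1291. Reads shared with Val rows cannot be told apart from separate ones, so the GlyACC call may not be separate from the Val calls.

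Val carried the next differences. ValCAC had 1575 and 799.6 CPM in wt NS, 903 and 1053 CPM in wt LPS, 1410.1 and 760 CPM in 3'RR-deficient NS, 994 and 948 CPM in 3'RR-deficient LPS, and 6652 and 8665.5 CPM in the Eµ-deficient NS and LPS libraries. Again both Eµ-deficient libraries were above all others. The log2 difference was 2.86 (SE 0.50, adjusted p = 0.00933), and ValAAC followed with 2.58 (SE 0.47, adjusted p = 0.0111). ValTAC was at 392 to 623 CPM in the 8 libraries and at 1278 and 2142 CPM in the Eµ-deficient ones, with a difference of 1.69 that did not pass (adjusted p = 0.0826). As a sum, Val had 1698 to 3084 CPM in the 8 libraries against 11258 and 15218 CPM, and was the only amino acid sum of the 6 to pass (log2 2.55, SE 0.50, adjusted p = 0.0186, with 2.34% of 4150 features called, 2.27% higher and 0.0723% lower). That call was lost when wt LPS replicate 1 (adjusted p = 0.0789), wt LPS replicate 2 (0.0998), the Eµ-deficient NS library (0.117) or the Eµ-deficient LPS library (0.227) was left out.

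Gly and Glu followed. GlyCCC was at 980 to 1757 CPM in the 8 libraries and at 5421 and 8326.5 CPM in the Eµ-deficient NS and LPS libraries (log2 2.48, SE 0.44, adjusted p = 0.0103). GlyGCC, the most abundant glycine anticodon, was at 5664 to 9810.1 CPM against 30094 and 29566 CPM (log2 2.03, SE 0.48, adjusted p = 0.0463). GlyTCC had 1099.7 to 2502 CPM against 4750.2 and 3965 CPM and did not pass (log2 1.45, SE 0.45, adjusted p = 0.152). For each of these 3 anticodons both Eµ-deficient libraries were above all 8 others after TMM scaling. As shares of library counts this held for GlyCCC and GlyGCC, but GlyTCC in the Eµ-deficient NS library was below the second NS libraries of wt and 3'RR-deficient mice. GluCTC was at 3241 to 9034 CPM against 31633 and 27246 CPM (log2 2.33, SE 0.55, adjusted p = 0.0485), while GluTTC, its isoacceptor, was at 1862 to 6238 CPM against 6309 and 6655 CPM (log2 0.87, SE 0.58, adjusted p = 0.568). Without TMM scaling, GluTTC in the Eµ-deficient NS library was within the range of the 8 others. The sums of Gly (log2 2.02, adjusted p = 0.0561) and Glu (log2 1.91, adjusted p = 0.125) did not pass, although Gly did without 3'RR-deficient NS replicate 2 (adjusted p = 0.0433), and both sums passed with DESeq2's Wald test (adjusted p = 7.2e-11 and 0.00878) and without the second NS libraries (0.00384 and 0.0334).

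Lys, His and Asp gave other values. LysCTT was at 4197 to 9575 CPM in the 8 libraries and at 9405 and 10896 CPM in the Eµ-deficient ones (log2 0.63, SE 0.51, adjusted p = 0.65). LysTTT went the other way, with 3602 and 4238 CPM against 1261 to 10964 CPM over both conditions (log2 -0.53, SE 0.75, adjusted p = 0.801). HisGTG had 734 and 1610.5 CPM against 144 to 1118 CPM (log2 0.72, adjusted p = 0.699), and the low-level HisATG, under 8 CPM everywhere, gave -0.56 (adjusted p = 0.831). AspGTC had 25677 and 13546 CPM against 7270 to 29533 CPM (log2 0.53, SE 0.54, adjusted p = 0.726). Over both conditions the Eµ-deficient levels of LysTTT and AspGTC lay within the range of the other libraries, but among the LPS libraries LysTTT was lowest in the Eµ-deficient one. A p that misses the threshold does not show that these levels were alike, since the SE of 0.51 to 0.90 allows differences of more than 2-fold.

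Within 1 condition, on TMM-scaled levels and without a test, the Eµ-deficient library was above all 4 wt and 3'RR-deficient libraries for 9 of 14 anticodons without LPS and for 11 of 14 with LPS, against 22.2% and 24.5% of all 4179 features. It was below all 4 for 0 and for 1 (LysTTT), against 19.2% and 23.9% of features. The calls of GlyGCC and GluCTC were the least stable: of the 10 fits that each left out 1 library, GlyGCC lost its call in 9 and GluCTC in 8, and both lost it with DESeq2's size factors, with total count scaling and with the highest row in place of the sum. GlyACC alone stayed called without wt LPS replicate 2, without the Eµ-deficient NS library and without the Eµ-deficient LPS library, 1 call in each case. Without the second NS libraries of wt and 3'RR-deficient mice 8 anticodons were called, the same 6 with GlyTCC and ValTAC.

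Other RNA classes and markers of other cell types moved with this difference. Small nucleolar RNA took 3.00% to 8.57% of the counts in the 8 libraries against 10.5% and 9.61% in the Eµ-deficient NS and LPS libraries, features of the piRNA class 8.38% to 14.6% against 17.5% and 17.6%, and miscellaneous RNA 0.101% to 0.397% against 0.763% and 0.723%. The only microRNA listed for T cells, miR-31-5p, was at 1.05 to 8.29 CPM in the 8 libraries and at 60.9 and 57.1 CPM in the Eµ-deficient NS and LPS libraries. A single microRNA does not show which cell type it came from. The myeloid list (2 of 2 microRNAs detected, both arms of miR-223) summed to 646 to 1432 CPM in the 4 other NS libraries against 5974 CPM, and to 65.5 to 169.6 CPM in the 4 other LPS libraries against 627.5 CPM. The erythroid list (3 of 3 detected, with miR-451a) summed to 2245 to 8771 CPM against 9402 CPM without LPS, and to 109.8 to 1001 CPM against 4373 CPM with LPS. The endothelial and stromal list (5 of 5 detected) summed to 468 to 2056 CPM in the 8 libraries and to 2336 and 1770.4 CPM in the Eµ-deficient ones. These marker levels are scaled to microRNA counts, whose share of the library was lowest in the Eµ-deficient libraries. Scaled to all counts, the Eµ-deficient values would be lower relative to the others, so the smaller gaps may not hold. No defining marker of these lists was at 0 over all libraries. The part of such cells or RNA classes in the 6 rises was not tested, and with 1 Eµ-deficient library per condition the genotype and the library cannot be told apart.

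**Figure D2:**
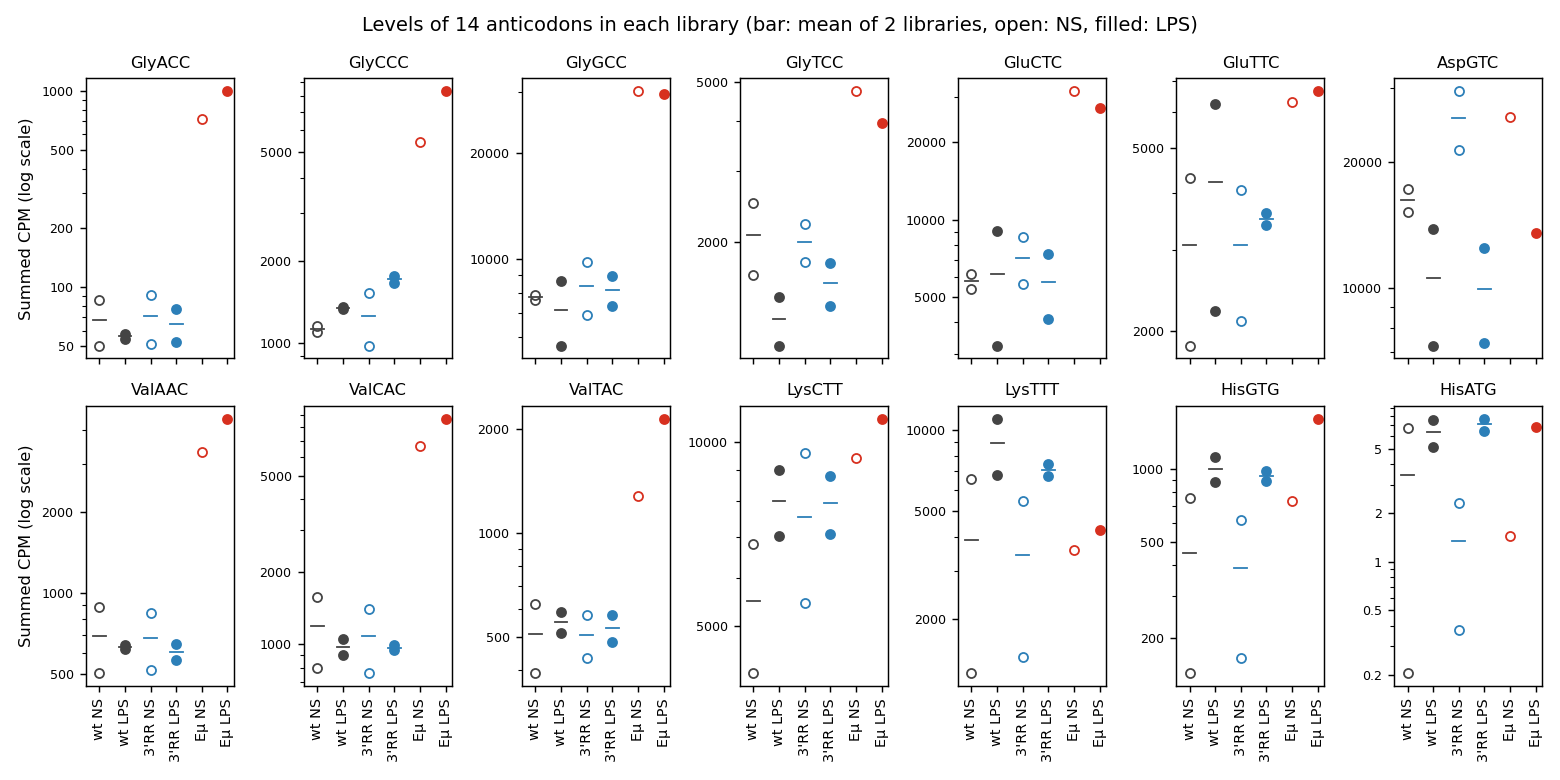
Summed level of each of the 14 anticodons (CPM after TMM scaling, log y axis, a scale of its own in each panel) in the 10 libraries (x axis: genotype and condition). Points are libraries and bars the mean of 2 libraries. The red Eµ-deficient points are above the rest for GlyACC, GlyCCC, GlyGCC, GlyTCC, GluCTC, GluTTC and the 3 Val anticodons, and the lower points of LysTTT and HisGTG without LPS are the second NS libraries.

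Rows of the same anticodon did not all move together. Of 128 rows tested, 46 rose and 0 fell in Eµ-deficient against wt cells, against 3.43% of 4554 features called (3.34% higher, 0.0878% lower) and 1 of 298 rows of the other tRNAs. The count was 20 of 29 for Gly, 12 of 21 for Glu, 12 of 21 tested for Val, 2 of 16 for Asp, 0 of 30 for Lys and 0 of 11 for His. Since like copies hold like counts, these are fewer than 46 separate measurements. The count fell to 23 without wt NS replicate 1, to 15 without the Eµ-deficient NS library and to 7 without the Eµ-deficient LPS library, and it was 56 without the second NS libraries.

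The 3 largest rises at row level were 2 Glu rows and the Gly row above. For chr7.tRNA969-GluCTC (chr7:99543900-99543971, minus strand) the level was 78.2 and 181 CPM in wt NS, 90.9 and 69.2 CPM in wt LPS, 142 and 129.5 CPM in 3'RR-deficient NS, 201 and 117 CPM in 3'RR-deficient LPS, and 1460.5 and 1407 CPM in Eµ-deficient cells. Both Eµ-deficient values were above the highest of the others. The difference was 3.8 on the log2 scale (SE 0.48, adjusted p = 0.00168). The row chr12.tRNA892-GluCTC (chr12:42415075-42415146, minus strand) moved alike (log2 3.78, SE 0.47, adjusted p = 0.00167), and chr11.tRNA205-GlyACC (chr11:48823728-48823801, plus strand) gave 3.79 (SE 0.44, adjusted p = 0.00139). In contrast, the most abundant Glu row, chr10.tRNA90-GluCTC (chr10:30811140-30811211, plus strand), gave 2.16 (SE 0.49, adjusted p = 0.029) from 327 to 939.5 CPM in the 8 libraries against 2964 and 2502 CPM. The GluCTC rows therefore formed groups by level and size of difference: 9 rows at 2.16 to 2.18, chr17.tRNA719-GluCTC at 2.60 and the pair above near 3.8. The last GluCTC row, chr3.tRNA622-GluCTC, had at most 14 counts in a library and is given no fold.

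The Val anticodons split more sharply, and the single Val, GlyCCC and LysCTT rows named from here on other than the most abundant ones were chosen after their values were seen. Of the ValAAC rows, 4 gave 3.05 to 3.25 and passed, whereas the other 3 tested rows, all on chromosome 13, gave 0.07 to 0.09. One of the latter, chr13.tRNA977-ValAAC, was at 95.7 and 53.6 CPM in wt NS, 91.2 and 83 CPM in wt LPS, 86.7 and 55.4 CPM in 3'RR-deficient NS, 69.4 and 75.1 CPM in 3'RR-deficient LPS and 81.9 and 90 CPM in Eµ-deficient cells, so that its groups overlapped. Of the ValCAC rows, 8 passed with 2.50 to 3.32, and chr13.tRNA976-ValCAC (0.12), chr13.tRNA97-ValCAC (-0.0027) and chr3.tRNA928-ValCAC (-0.25) did not. The rows that rose in both Val anticodons had near-equal levels in the Eµ-deficient LPS library, from 929 CPM for chr13.tRNA95-ValAAC to 1094 CPM for chr13.tRNA98-ValCAC, so that reads shared between the anticodons cannot be told apart from separate ones. The row chr11.tRNA205-GlyACC lay in the same range there, at 992.8 CPM, so the same limit holds for it. The row chr13.tRNA966-ValCAC, whose sequence is printed above, was at 83.9 to 199 CPM in the 8 libraries and at 847 and 1086 CPM in the Eµ-deficient ones (log2 2.95, SE 0.45, adjusted p = 0.00325). The most abundant Val row, chr19.tRNA109-ValTAC (chr19:12011931-12012003, plus strand), gave 1.42 (SE 0.38, adjusted p = 0.0705).

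GlyCCC split in the same way. The 5 rows that passed gave 2.30 to 3.07, chr17.tRNA112-GlyCCC (3.07) among them, and chr3.tRNA755-GlyCCC and chr3.tRNA287-GlyCCC gave -0.34 each. All 14 GlyGCC rows passed (1.85 to 2.62), the most abundant Gly row chr2.tRNA1747-GlyGCC (chr2:57182394-57182464, minus strand) with 1.85 (SE 0.39, adjusted p = 0.0184), and none of the 7 GlyTCC rows did (1.38 to 1.42). Among the Asp rows, 14 gave 0.47 to 0.57, with the most abundant, chr10.tRNA866-AspGTC (chr10:91182097-91182168, minus strand), at 0.57 (SE 0.46, adjusted p = 0.642). The 2 low-level Asp rows that passed, named here after their values were seen, were chr2.tRNA511-AspGTC, at 14.3 to 28.6 CPM in the 8 libraries against 125 and 86.3 CPM (log2 2.56, adjusted p = 0.00334), and chr5.tRNA1610-AspGTC, at 48.5 to 68.3 CPM against 241 and 319 CPM (log2 2.38, adjusted p = 0.00325). In Lys the highest row value of those above 1 CPM was 1.39 (chr1.tRNA1276-LysCTT, adjusted p = 0.0993), and the most abundant row, chr9.tRNA1035-LysCTT (chr9:90126509-90126581, minus strand), gave 0.56 (SE 0.39, adjusted p = 0.593). The His row with the highest mean, chr3.tRNA747-HisGTG (chr3:96500366-96500437, minus strand), gave 0.64 (SE 0.62, adjusted p = 0.705).

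**Figure D3:**
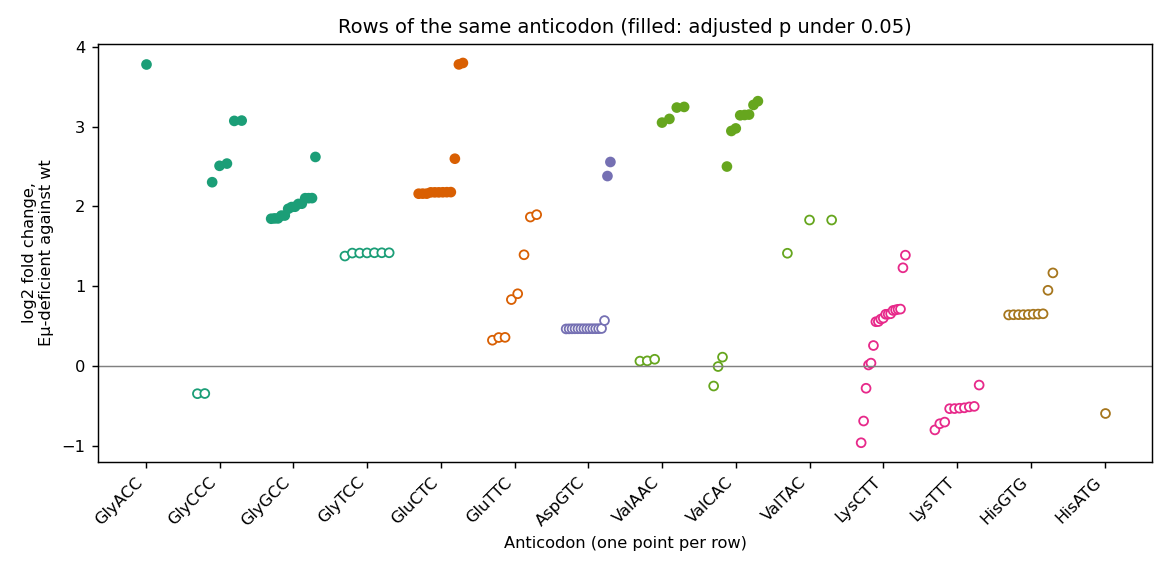
Log2 fold change of each tRNA row in Eµ-deficient against wt cells (y axis), grouped by anticodon (x axis), 1 point per row, for 126 rows. 2 tested rows with a mean under 1 CPM are not drawn. Filled points passed edgeR's test (adjusted p under 0.05). The ValAAC, ValCAC, GlyCCC and AspGTC rows fall into a group near 0 or 0.5 and a group above 2.

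LPS was compared with NS over the 8 wt and 3'RR-deficient libraries, to ask which fragments follow B-cell activation. Of 14 anticodons 0 passed, against 5.12% of 3614 features, 2.79% higher and 2.32% lower (edgeR's quasi-likelihood test). At an unadjusted p under 0.05 the count was also 0, against 23.7% of features, and with DESeq2 it was 0, whereas 1 anticodon passed without wt NS replicate 1. HisATG (log2 1.54, SE 0.78, adjusted p = 0.26), HisGTG (1.22, SE 0.60, adjusted p = 0.252) and LysTTT (1.13, SE 0.64, adjusted p = 0.305) had the highest values, and AspGTC the lowest (-0.96, SE 0.50, adjusted p = 0.266). The His and Lys values leaned on the NS libraries: HisGTG was at 1.87 without wt NS replicate 1 and at 0.92 without wt NS replicate 2, LysTTT at 1.73 and 0.81, and without both second NS libraries they were at 0.51 and 0.42. Markers of other cell types moved with LPS in the same libraries, the myeloid list from 646 to 1432 CPM without LPS to 65.5 to 169.6 CPM with LPS and the erythroid list from 2245 to 8771 CPM to 109.8 to 1001 CPM, and their part in these differences was not tested.

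On TMM-scaled levels 3 of these anticodons had no overlap between LPS and NS, 2 of 14 above and 1 of 14 below, against 9.38% and 6.39% of all 3614 features. HisGTG was at 757 and 144 CPM in wt NS, 612.5 and 165 CPM in 3'RR-deficient NS, and with LPS at 1118 and 881 CPM in wt and at 892 and 978 CPM in 3'RR-deficient cells. LysTTT was at 6545 and 1261 CPM in wt NS, 5424 and 1446.5 CPM in 3'RR-deficient NS, 10964 and 6812 CPM in wt LPS, and 6747 and 7467 CPM in LPS-stimulated 3'RR-deficient cells. In both, every LPS library was above every NS library, and within each genotype the second NS library was far below the first. AspGTC was at 17262 and 15157 CPM in wt NS, 29533 and 21354 CPM in 3'RR-deficient NS, 13797 and 7270 CPM in wt LPS, and 12451.5 and 7386 CPM in LPS-stimulated 3'RR-deficient cells, every LPS library below every NS library. This separation of AspGTC was absent without TMM scaling: as a share of library counts over all 10 libraries Asp was at 1.13% to 3.02% without LPS and at 0.909% to 1.68% with LPS, and the groups overlapped (log2 -0.43, exact permutation p = 0.167, adjusted p = 0.25). None of these passed the test across features with TMM scaling. With total count scaling HisGTG (log2 1.85, adjusted p = 0.03003) and LysTTT (1.76, adjusted p = 0.0278) passed, and with microRNA scaling likewise (1.93, adjusted p = 0.0255, and 1.83, adjusted p = 0.0279). AspGTC passed in a fit of the tRNA class alone (-1.39, adjusted p = 0.0213).

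The amino acid sums gave 1.24 for His (SE 0.60, adjusted p = 0.243), 0.68 for Lys (SE 0.52, adjusted p = 0.457), -0.96 for Asp (SE 0.50, adjusted p = 0.27) and 0.08, -0.06 and -0.09 for Glu, Gly and Val, with 5.24% of 3585 features called, 2.9% higher and 2.34% lower. The His result depended on the scaling. In the fit of single rows (3987 features) TMM held the median of all features at -0.05, total count scaling put it at 0.35 and scaling on microRNAs alone at 0.57, and with these His gave 1.85 (adjusted p = 0.0305) and 1.94 (adjusted p = 0.027). Relative to the shifted medians the direction of His was the same. Taken as a share of library counts over all 10 libraries, Lys was at 0.766% to 0.977% without LPS (median 0.819%) and at 1.37% to 2.36% with LPS (median 1.87%), and His at 0.0202% to 0.0499% and 0.0894% to 0.2%. The groups of neither overlapped. The log2 differences were 1.15 and 2.00, in each case with an exact permutation p of 0.0278, the smallest that 72 arrangements allow, and 0.0833 after adjustment over the 6 amino acids.

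**Figure D4:**
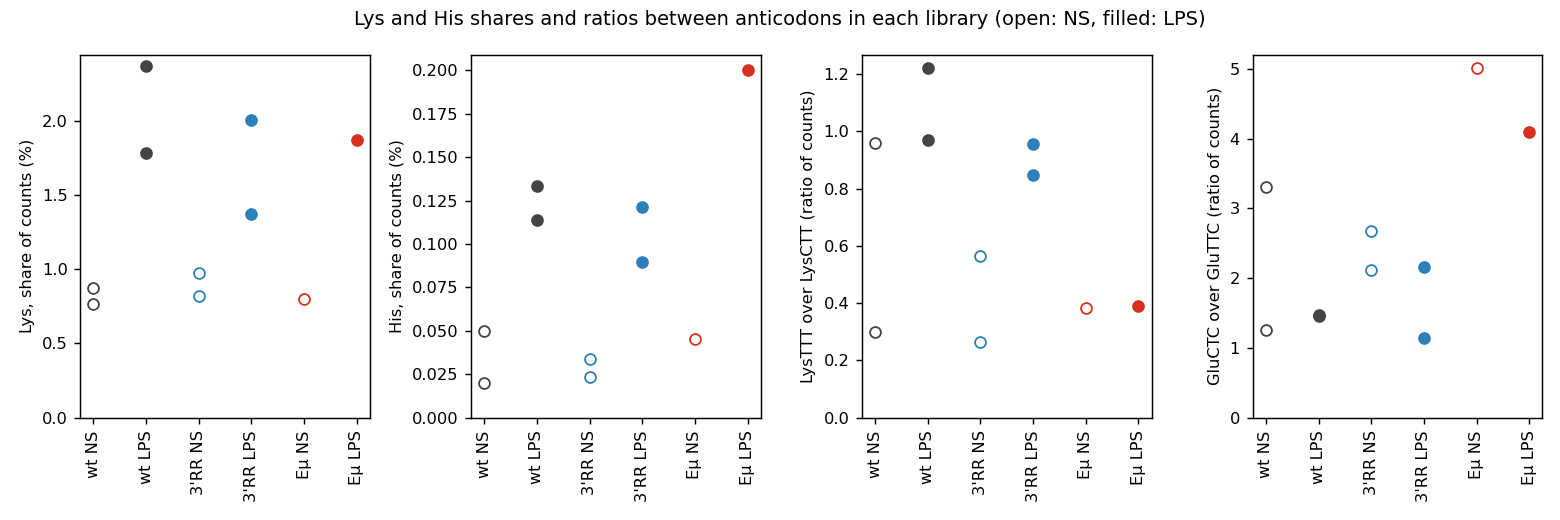
Shares of library counts taken by Lys and by His (%, y axes of the first 2 panels) and ratios of summed counts between anticodons (LysTTT over LysCTT, GluCTC over GluTTC, last 2 panels) in each of the 10 libraries (x axis: genotype and condition). Points are libraries. Every LPS point of Lys (1.37% or more) and His (0.0894% or more) is above every NS point, and GluCTC over GluTTC is highest in both Eµ-deficient libraries (5.01 and 4.09).

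At row level 1 of 127 rows tested rose with LPS and 0 fell, against 4.51% of 3987 features called (2.16% higher, 2.36% lower), with 19 of 127 rows at an unadjusted p under 0.05, against 947 of 3987 features (23.8%). The row was chr13.tRNA89-LysTTT (chr13:21971788-21971860, plus strand), a minor copy of a lysine tRNA. It had 19 and 2.87 CPM in wt NS, 13.7 and 4.90 CPM in 3'RR-deficient NS, 70.9 and 55.8 CPM in wt LPS, and 43.7 and 58 CPM in LPS-stimulated 3'RR-deficient cells, with no overlap (log2 2.40, SE 0.56, adjusted p = 0.0446). In the second NS libraries this rested on 14 and 26 counts. The count of calls was 0 when either wt LPS library, either 3'RR-deficient NS library or either 3'RR-deficient LPS library was left out, and 3 without wt NS replicate 1. Of the other LysTTT rows, chr8.tRNA320-LysTTT had at most 22 counts in a library and is given no fold, and the rest gave 0.98 to 1.36 without passing. The 11 His rows gave 1.09 to 1.46, also without passing. Over the 127 rows the median was -0.11, beside -0.05 over all features, and 7 of 296 rows of the other tRNAs rose.

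The LPS difference was also taken within each genotype. HisGTG gave 1.22 in wt and 1.23 in 3'RR-deficient cells, LysTTT 1.26 and 1.01, and AspGTC -0.55 and -1.38. Within wt 0 of 14 anticodons passed, and within 3'RR-deficient cells 0 of 14, with 0.0% of all 3614 features called in either. At an unadjusted p under 0.05 the member count was 0 in both, against 11.8% and 11.1% of features. The difference between these LPS effects passed for 0 of 14 anticodons (0.0% of features, 0 members at an unadjusted p under 0.05), with AspGTC at -0.82 (SE 1.06, adjusted p = 1.00) and HisGTG at 0.01 (SE 1.30, adjusted p = 1.00).

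The ratio between isoacceptors of the same amino acid varied by library. LysTTT over LysCTT was 0.959 and 0.3 in wt NS, 0.566 and 0.265 in 3'RR-deficient NS, 1.22 and 0.971 in wt LPS, 0.955 and 0.848 in LPS-stimulated 3'RR-deficient cells and 0.383 and 0.389 in the Eµ-deficient NS and LPS libraries. It was below 0.6 in 3 of 4 NS libraries of wt and 3'RR-deficient mice, above 0.8 in all 4 of their LPS libraries, and as low in the Eµ-deficient LPS library as in the NS one. GluCTC over GluTTC was 1.14 to 3.31 in the 8 libraries and 5.01 and 4.09 in the Eµ-deficient ones. ValCAC over ValAAC was 1.41 to 1.78 in the 8 libraries and 2.00 and 1.96 in the Eµ-deficient ones. GlyGCC over GlyCCC was 4.18 to 7.08 in the 8 libraries, and 5.55 and 3.55 in the Eµ-deficient NS and LPS libraries. These ratios were not tested.

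3'RR-deficient cells were compared with wt cells over both conditions, to ask whether loss of this enhancer region altered the fragments. No member passed. Of 14 anticodons 0 were called, against 0.0277% of 3614 features, with 0 at an unadjusted p under 0.05, and of 127 rows 0 were called, against 0.0251% of 3987 features, again with 0 at an unadjusted p under 0.05. DESeq2 called 0 anticodons and 0 rows. The anticodon differences ran from -0.51 for HisATG (SE 0.77) to 0.29 for AspGTC (SE 0.49), with a median of 0.05 beside 0.03 over all features. For the amino acid sums (0.0279% of 3585 features called) they were 0.30 for Asp, 0.17 for Gly, 0.05 for Lys, 0.04 for Glu, -0.03 for Val and -0.12 for His, with SEs of 0.43 to 0.60.

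The rows with the smallest p in this comparison were chr3.tRNA928-ValCAC (chr3:59474926-59474997, minus strand; log2 -0.38, SE 0.31), chr7.tRNA969-GluCTC (0.51, SE 0.43) and chr13.tRNA1053-LysCTT (chr13:4224148-4224220, minus strand; 0.44, SE 0.38), each with an adjusted p of 0.999. For chr13.tRNA1053-LysCTT the levels were 189 and 197 CPM in wt NS, 455 and 246 CPM in 3'RR-deficient NS, 256 and 248 CPM in wt LPS, and 206 and 337 CPM in LPS-stimulated 3'RR-deficient cells, so that the 2 genotypes overlapped. Within NS the anticodon differences were -1.31 (HisATG) to 0.71 (AspGTC), and within LPS -0.35 (LysTTT) to 0.32 (GlyCCC), with 0 of 14 called and 0.0% of features called in each, and 0 members at an unadjusted p under 0.05.

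**Figure D5:**
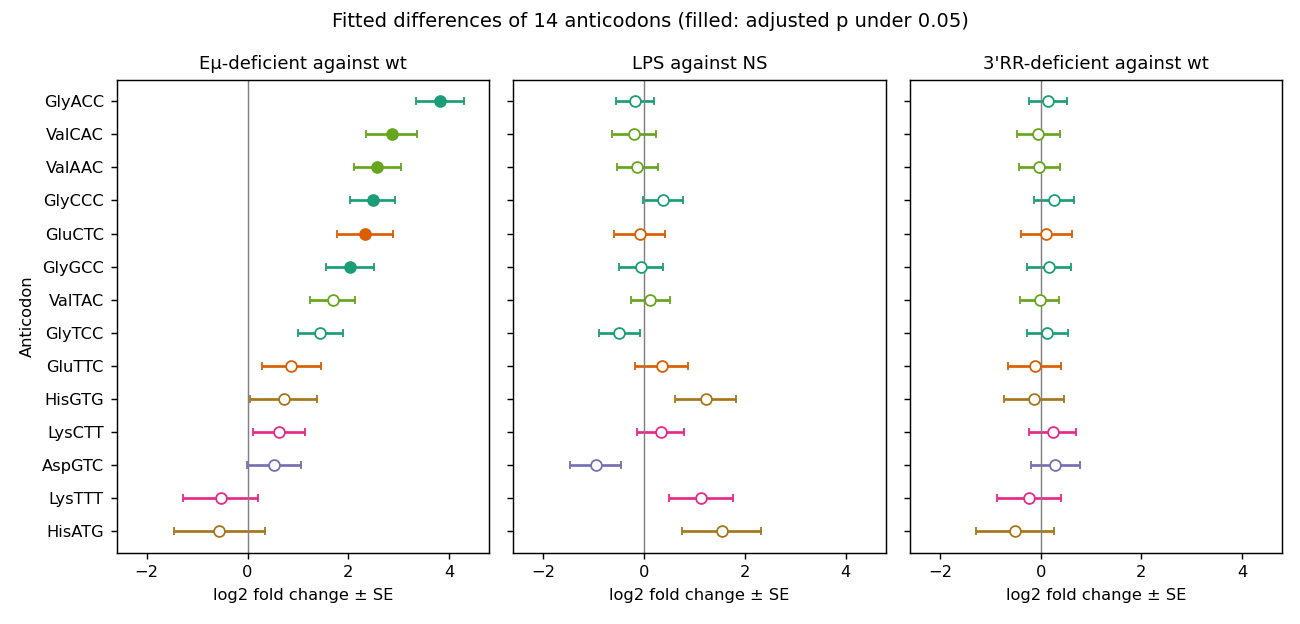
Fitted log2 fold change ± SE (x axis) of the 14 anticodons (y axis) in Eµ-deficient against wt cells (left), LPS against NS (middle) and 3'RR-deficient against wt cells (right). Filled points passed edgeR's test (adjusted p under 0.05). There are 6 filled points on the left, from GlyGCC at 2.03 to GlyACC at 3.82, and none in the other 2 panels.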

How the data were processed

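Small RNA of CD43- splenic B-cells was sequenced in 10 libraries, each a pool of 2 mice, and the authors deposited raw read counts per feature in a single table. Per the submitters' processing notes, cutadapt 1.2.1 and Bowtie2 were used with the mm10 build. How reads that fit several tRNA copies were counted is not given in the sources used here. Libraries were amplified over 17 cycles and size-selected between 140 and 160 nt, which limits the fragment lengths that could be seen. This is the size of the library molecules with their adapters, and the RNA fragments in them are shorter. Depth ranged from 3482540.0 to 18144016 counts, and 0.0 sample columns were left unmapped.

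The counts were summed over the rows of an anticodon or amino acid and tested with edgeR 4.0.16 (R 4.3.3, filterByExpr, TMM scaling, quasi-likelihood test, Benjamini-Hochberg adjustment over all features, threshold 0.05). LPS and 3'RR-deficiency were tested in an additive fit of the 8 wt and 3'RR-deficient libraries, Eµ-deficiency in one of all 10. DESeq2 1.42.0 was an alternative. Levels of tRNA rows and sums are CPM after TMM scaling. Levels of the microRNA marker lists are instead scaled to the microRNA counts of a library, without TMM. Shares were compared by exact permutation tests. The named rows are the row of highest mean in each amino acid, up to 3 called rows of largest change in each direction with a mean of at least 10 CPM, and otherwise the 3 of smallest p. Members and lists were chosen with earlier results of these data known. Sequences are those that the transcript and promoter tables covered, in place of the most abundant rows. The fits were tested on simulated data. Other scalings, filters, replicate blocks and the removal of each library were tried.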

Additional observations from a re-analysis of the deposited data

How the results depend on the processing

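With 1 Eµ-deficient library per condition and 2 in the other groups, the smallest anticodon difference called was 4.09-fold (GlyGCC), while sums at 4.05-fold (Gly) and 3.76-fold (Glu) were not called, and copies that share reads are not separate measurements. The cause of the changes below was not tested. Alternatives chosen after seeing the data were the shares of single amino acids, the sum of highest rows, the crossed block and the fit without the second NS libraries. Values are log2 differences or counts of calls, with adjusted p where a call changed.

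For Eµ-deficient against wt, Gly and Glu passed with the DESeq2 Wald test (2.04, adjusted p = 7.2e-11, and 1.90, adjusted p = 0.00878), a filter of 10 CPM (1.94, adjusted p = 0.00847, and 1.86, adjusted p = 0.0248), the tRNA class alone (1.49, adjusted p = 0.00098, and 1.53, adjusted p = 0.000249) and without the second NS libraries (2.05, adjusted p = 0.00384, and 1.79, adjusted p = 0.0334). Lys turned to -0.10 with total count scaling, -0.048 with microRNA scaling, -0.21 in the tRNA class and -0.12 without the second NS libraries. In the tRNA class AspGTC was at -0.15 and LysCTT at -0.056. Total count scaling called 23 rows.

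For LPS, total count scaling gave Gly 0.17, Val 0.26 and His 1.85 (adjusted p = 0.0305), with 2 anticodons and 24 rows called. MicroRNA scaling gave Gly 0.41, Val 0.45 and His 1.94 (adjusted p = 0.027), with 2 anticodons and 27 rows. The tRNA class alone gave Asp -1.26 (adjusted p = 0.00452) and Glu -0.25, with 1 anticodon and 16 rows, of which 2 were higher. With no filter Gly was at 0.0044, with 1 anticodon and 5 rows. The 10 CPM filter gave Gly 0.069 and Val 0.051, and the fit of 10 libraries Val 0.028. DESeq2 called 5 rows and put Glu at -0.0087, or -0.0086 with its size factors alone. The highest row in place of the sum gave Glu -0.079 and Lys -0.21. As shares, Gly was at 0.53 and Val at 0.67. Without the second NS libraries Glu was at -0.18. Against all tRNA counts the share of the 6 amino acids gave -0.038 for LPS and 0.090 for 3'RR-deficiency. With the highest rows summed, 1 neighbouring pair of amino acids differed.

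For 3'RR-deficient against wt, directions turned to Glu -0.048 and Lys -0.0023 with microRNA scaling, Glu -0.14, Gly -0.015 and Lys -0.082 with total count scaling, His 0.10 and Val 0.14 in the tRNA class, Val 0.015 with the highest row and Lys -0.042 without the second NS libraries. None of these passed.

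The labels do not say that replicate numbers mark a shared mouse or day. With the replicate block, Eµ-deficient Lys was at -0.12, and 4 anticodons, 46 rows and for LPS 2 rows were called. The 4 were GlyACC, GlyCCC, ValAAC and ValCAC, while GluCTC (2.00, adjusted p = 0.071) and GlyGCC (2.07, adjusted p = 0.0509) lost their calls. With the replicate block within culture condition, Gly (2.06, adjusted p = 0.000656) and Glu (1.60, adjusted p = 0.00576) passed, Lys was at -0.13, and 8 anticodons, 63 rows and 3 LPS rows were called. The 8 were the 6 of the main fit with GlyTCC (1.56, adjusted p = 0.00777) and ValTAC (1.57, adjusted p = 0.00867). A crossed replicate block called 0 anticodons and 1 row for LPS.

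Leaving out each library in turn gave 1 to 6 anticodons and 7 to 48 rows called in Eµ-deficient cells, with Gly 1.91 to 2.11, Val 2.26 to 2.83, Lys -0.11 to 0.38 and HisATG -0.92 to 0.61. For LPS it gave 0 to 1 anticodons and 0 to 3 rows, with His 0.92 to 1.87, Lys 0.43 to 1.04, Asp -1.24 to -0.72, Gly -0.16 to 0.061, Glu -0.33 to 0.33 and Val -0.25 to 0.12. For 3'RR-deficiency it gave a share of -0.19 to 0.19, Glu -0.22 to 0.43, Val -0.26 to 0.12, Lys -0.33 to 0.25 and His -0.66 to 0.45.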
